A study of Mus musculus with 16 samples.

Results

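The cytosolic ribosomal protein genes were examined in RNA sequencing of mouse neutrophils. The members were the protein-coding genes whose symbol is Rpl or Rps with a number and at most a short suffix, together with Rplp0, Rplp1, Rplp2 and Rpsa, leaving out named pseudogenes and the Rps6k kinases. This rule found 85 of the 49315 genes in the count files, 52 of the large and 33 of the small ribosomal subunit. Of these, 77 are core ribosomal proteins and 8 are paralog forms (Rpl3l, Rpl7l1, Rpl10l, Rpl22l1, Rpl36al, Rpl39l, Rps27l and Rps27rt), which resemble a core protein and are encoded by a separate gene.

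Neutrophils (Ly6G+/CD11b+/CD45.2+ cells) were sorted from the blood and the lung of male WT mice and of male mice lacking αD (CD11d, encoded by Itgad), aged 8 to 12 weeks. Mice were sampled without surgery (baseline) or 12 hours into cecal ligation and puncture (CLP), a surgical model of abdominal sepsis. The labels limit the knockout to no cell type. Genotype, tissue and time form 8 groups with 3 count files each. The files belong to 16 samples, since sample 1 of each group has 2 files, called here libraries 1a and 1b, and library 2 is that of sample 2. The sources used here do not assign 1a and 1b to different mice, so p-values measure the spread between these libraries, which may be partly technical.

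Cytosolic ribosomes are built from ribosomal RNA and about as many copies of each ribosomal protein, and the genes of these proteins are usually among the most highly expressed of a growing cell. Mature neutrophils have left the cell cycle, and their ribosome production falls as they develop in the bone marrow from granulocyte precursors. Many ribosomal protein mRNAs begin with a run of pyrimidines, the 5′ terminal oligopyrimidine (TOP) motif, through which mTOR signalling controls their translation. A change of mRNA level measured by sequencing therefore does not say whether the protein was made.

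Sorted neutrophil markers were present in all 24 libraries, with S100a8 at 8914 CPM or more and Ly6g at 18.6 CPM or more. CPM are depth-scaled read counts corrected with TMM factors, which align the bulk of the genes between libraries. Total counts were 5753476 to 29984954 per library. The 8 libraries 1b had 29162 to 38844 genes with counts and the other 16 had 17132 to 32666. Itgad was measured at 0.0583 to 3.67 CPM in the 12 WT libraries and at 12.5 to 102 CPM in the 12 others, labelled αD KO, opposite to what a loss of the transcript would give. The sources used here do not say which part of the gene the knockout alters, so the counts of the whole gene do not check the genotype labels. Directions by genotype below rest on the labels. Library 2 labelled αD KO blood baseline stood apart, with 410 CPM of the summed T and NK cell markers against 8.50 to 34.2 CPM in the other 23 libraries, 1589 CPM of B cell, 1565 CPM of monocyte and macrophage, 9089 CPM of erythroid, 641 CPM of platelet and 84.9 CPM of proliferation markers, the highest of all 24 libraries for each. In lung, library 2 labelled αD KO baseline had 79146 CPM of immature neutrophil granule genes (such as Ngp and Ltf), within the 32628 to 89873 CPM of WT lung at 12 hours, while 1a and 2 of the αD KO lung group at 12 hours had 8346 and 12893 CPM.

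Sequences are shown for 2 members that passed a test, Rps13 and Rpl36al, each beside a similar gene, to show how far the genes of a pair differ, and for the start of 2 abundant members. The first pair is Rps13 and its pseudogene Rps13-ps1. Rps13, a small subunit protein, lies at chr7:116331505-116334195 on the minus strand (GRCm38). Rps13-ps1 lies at chr8:87047689-87048226 and Rps13-ps2 at chr7:88530446-88530898. Compared base by base with the 453-base coding sequence of Rps13 (GENCODE M21, without the stop codon), Rps13-ps2 was identical at every base, Rps13-ps1 differed at 2 bases and Rps13-ps4 (chr8:119602170-119602625) at 3. The differences of Rps13-ps1 were T411C and A429G, the base of Rps13 first, counted from 1 at the first base of the start codon. The last 90 coding bases, with the differing bases in capitals, are:
Rps13: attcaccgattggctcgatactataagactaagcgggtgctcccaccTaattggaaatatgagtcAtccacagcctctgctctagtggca
Rps13-ps1: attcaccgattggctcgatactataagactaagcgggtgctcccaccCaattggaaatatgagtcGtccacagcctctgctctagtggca

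The second pair is Rpl36a (chrX:134585654-134588062) and its paralog Rpl36al (chr12:69182731-69184083), a large subunit protein and a related form. Their coding sequences have the same length of 318 bases and were 87.7% identical, with no identical run longer than 24 bases. Their first 120 bases, with differing bases in capitals, are:
Rpl36a: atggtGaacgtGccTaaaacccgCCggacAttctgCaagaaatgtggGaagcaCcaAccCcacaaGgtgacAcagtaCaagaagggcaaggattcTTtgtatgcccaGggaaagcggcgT
Rpl36al: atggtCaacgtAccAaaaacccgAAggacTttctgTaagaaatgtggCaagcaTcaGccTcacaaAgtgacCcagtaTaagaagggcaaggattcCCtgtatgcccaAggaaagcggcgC
Rps27 and its copy Rps27rt were identical over all 252 coding bases, so their counts cannot be separated with certainty, whereas Rps27 and Rps27l were 76.2% identical.

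A pyrimidine run at the transcription start was found more often in members than in genes at large. The run searched for was a C followed by at least 4 bases that are each C or T, on the gene's strand. It stood within 3 bases of an annotated RefSeq start (GRCm38.p6) in 26 of the 65 members with an entry (40%) and in 13.5% of all 27025 genes with one, and exactly at the start in 14 of 65 (21.5%) and 3.01%. The match describes these annotated starts, and its absence says only that the run is not in this window. The 30 bases around the start of Rps9 (chr7:3704026-3704055) and Rps27 (chr3:90213634-90213663), both small subunit proteins of high level, have the run in capitals:
Rps9: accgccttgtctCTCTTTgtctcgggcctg
Rps27: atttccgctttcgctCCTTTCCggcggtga

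Ribosomal protein genes took a small share of the reads counted. Their summed counts of uniquely mapped reads were 0.200% to 0.668% of all counts, with a median library at 0.309%. The large subunit genes held 49.0% to 57.0% of these counts. All but Rpl10l and Rpl39l had at least 10 counts in each library (83 of 85 members). Rpl10l and Rpl39l, forms known mainly from the testis, had 26 and 95 counts over all 24 libraries.

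Levels of the members, compared per kilobase of exon length, spanned a wide range within one complex. Rps9 was highest at 155 CPM per kb (83.9 to 262 across libraries), and among other abundant members Rps27 was at 99.8 and Rplp0, the stalk protein P0, at 76.9. The median member was at 15.1 CPM per kb. Rps9 alone held 5.55% to 15.7% of the ribosomal protein counts of a library, and the 10 members of highest level per kb held 35.8% of the counts. Rpl5 and Rpl11, which with 5S RNA bind the p53 regulator Mdm2, were at 5.02 and 9.15 CPM per kb. Rpl13a, a member of the interferon-regulated GAIT complex, was at 2.94, Rpl22 at 2.22 and its paralog Rpl22l1 at 4.23. Rps6, the substrate of the S6 kinases, was at 28.0, and Rps3, which sits at the mRNA entry, at 20.3. Rpl10, the last large subunit protein to join, was at 47.2, Rpl41 at 66.0, Rpl39 at 7.83, Rpl3 at 9.52 and Rps19, mutated in Diamond-Blackfan anaemia, at 7.08. Rps27a, made as a fusion with ubiquitin, was at 42.4. For all 84 pairs of neighbours in the order, the ranges over the 24 libraries overlapped. These ranges pool the 8 groups and do not compare 2 members within a library, so they do not decide which neighbours differ. Exon lengths include every annotated exon, so a level per kb is low for a gene with long unused exons. Unique counting also leaves out reads that match a gene and its pseudogene equally, and 59 of the 85 members have a named pseudogene. How far this lowered single levels, or the share of all counts given above, was not tested.

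**Figure D1:**
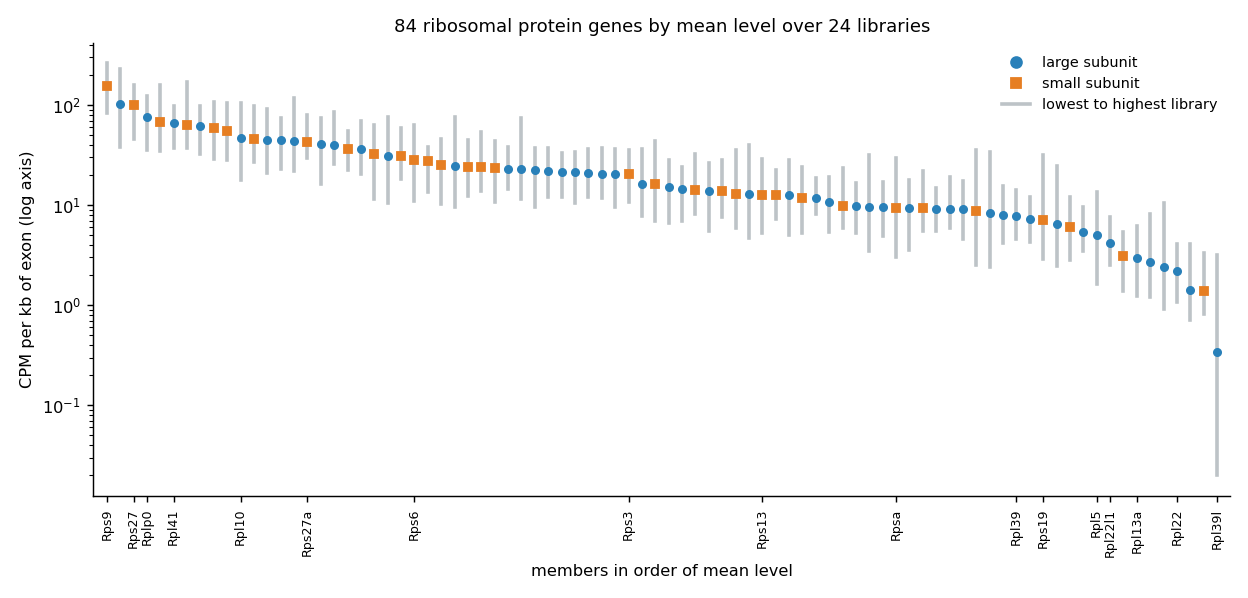
Mean level of 84 members over 24 libraries, in CPM per kb of exon on a log axis, in descending order; grey bars run from the lowest to the highest library (a lowest value of 0 is drawn to the foot of the axis). Some named members are labelled and Rpl10l is left out. Rps9 (155 CPM per kb) is highest and Rpl39l (0.343) lowest.

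Between groups the members varied moderately. The ratio of the highest to the lowest group mean was under 2 for 47 members and had a median of 1.89. It was 2 to 4 for 35 members and above that for Rpl36al (5.22) and Rpl39l (20.5), while Rpl10l was at 0 in whole groups. The highest group mean of Rpl39l rests on library 1b of WT blood baseline, at 2.63 CPM beside 0 in 1a and 2. That of Rpl36al, in WT blood at 12 hours, holds 46.4 CPM in library 1a beside 15.0 and 21.5 CPM. Rps13 had the largest ratio among core members, 3.69, and Rplp0 one of the smallest of the named members, 1.33. The SD of log2 CPM over the 24 libraries had a median of 0.492, and was 0.297 for Rpl41 and 0.775 for Rpsa.

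The change of the whole family by time depended on the scale. As a share of all counts, ribosomal protein genes were at 0.305, 0.373 and 0.403% in the WT blood baseline libraries and at 0.270, 0.274 and 0.277% at 12 hours, and the groups did not overlap. In WT lung the share was 0.297, 0.313 and 0.402% at the baseline and 0.200, 0.239 and 0.273% at 12 hours, again without overlap. Markers of other cells and of immaturity moved with time in the same libraries. The summed immature granule genes were at 281 to 7414 CPM at the baseline and 80000 to 188514 CPM at 12 hours in WT blood, and at 506 to 2148 and 32628 to 89873 CPM in WT lung. The summed B cell markers were at 271 to 1225 CPM and 42.5 to 273 CPM in WT blood, and at 447 to 811 and 35.4 to 110 CPM in WT lung. Their part in the results by time of WT blood and lung was not tested. On the TMM scale the same summed levels were 2979 ± 776 CPM and 3427 ± 831 CPM in WT blood (SD, n = 3 each) and 2957 ± 187 and 3290 ± 850 CPM in WT lung, higher at 12 hours in both tissues with overlapping libraries. Over the 24 libraries the TMM factors ranged from 0.557 to 1.93. Libraries labelled αD KO held 0.299, 0.355 and 0.668% in blood at the baseline and 0.333, 0.348 and 0.379% at 12 hours. In the lung they held 0.270, 0.323 and 0.373% at the baseline and 0.236, 0.297 and 0.317% at 12 hours. In both tissues the baseline and 12 hour libraries labelled αD KO overlapped on both scales. In bulk samples, fewer cells of a type and less RNA per cell cannot be told apart.

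**Figure D2:**
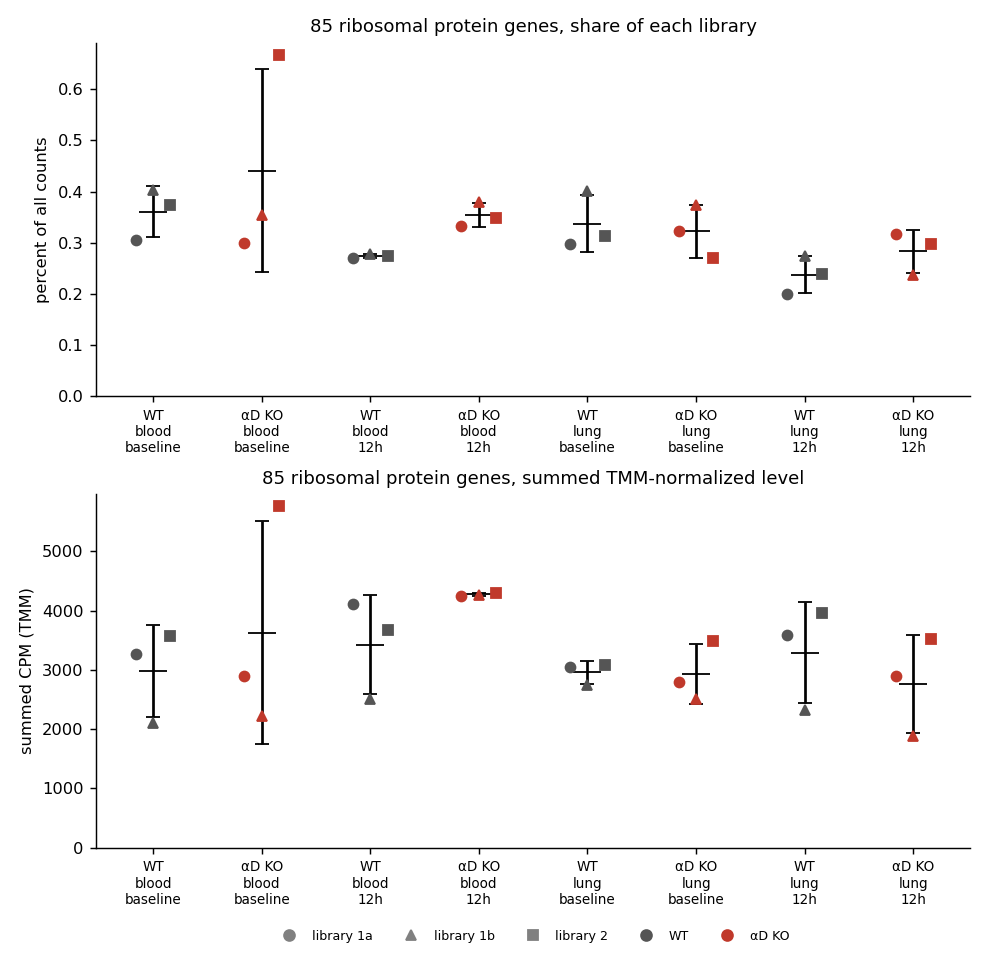
Ribosomal protein genes in each library as percent of all counts (top) and as summed TMM-normalized CPM (bottom), for 8 groups; points are libraries and black bars the mean ± SD of 3 libraries. Library 2 labelled αD KO blood baseline is highest on both scales (0.668% and 5759 CPM), and the fall from baseline to 12 hours in WT appears in the upper panel and not in the lower.

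In WT blood, 3 members passed the test between 12 hours and the baseline: 2 rose, Rpsa and Rpl36al, and 1 fell. They are 3 of the 83 members tested, against 13.6% of all 14625 genes tested, of which 7.84% rose and 5.79% fell (edgeR quasi-likelihood F test, two-sided, Benjamini-Hochberg adjusted p under 0.05 over all genes tested). All 3 also passed the study's further threshold of an absolute log2 fold change over 1. The balance of calls turned under alternatives: DESeq2 called 3 higher and 6 lower, and RLE factors gave 3 and 5. Over genes with at least 10 counts in every library there were 2 higher and 7 lower. The members' median log2 fold change was 0.07, beside a median of -0.15 for all genes tested, with 46 members above 0 (against 44.6% of all genes) and 37 below. The median was 0.37 without baseline library 2 (63 members above 0 and 20 below), 0.21 with the files of sample 1 summed, 0.29 without a filter on low counts and 0.27 with all 8 groups in 1 fit. Over genes with at least 10 counts in every library it was -0.13 (35 above and 48 below) beside -0.13 for all genes, so its sign was not stable. An unadjusted p under 0.05 was found for 11 members (28.8% of all genes).

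Rpsa, the laminin receptor precursor and a small subunit protein, was at 18.0, 9.69 and 23.8 CPM at the baseline and at 48.7, 35.5 and 41.3 CPM at 12 hours in WT blood. These libraries did not overlap, and 22.1% of all genes tested and 12 of 83 members were higher at 12 hours in this way. The fitted log2 fold change was 1.11, with a standard error (SE) of 0.29 and an adjusted p of 0.0452 by edgeR. Its share of ribosomal protein counts, a ratio that library scaling cannot move, went from 0.560 ± 0.103% to 1.24 ± 0.156% (SD, n = 3 each).

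Rpl36al, whose start is printed above beside Rpl36a, was at 6.86, 3.26 and 10.2 CPM at the baseline and at 46.4, 15.0 and 21.5 CPM at 12 hours. The highest baseline library was below the lowest library at 12 hours, as for 22.1% of all genes tested. The log2 fold change was 1.82 (SE 0.47, adjusted p = 0.0409 by edgeR). With 1 library left out, Rpl36al and Rpsa stayed called in 1 of 6 fits each, and both stayed called with libraries 1a and 2 alone (adjusted p = 0.0260 for Rpl36al and 0.0473 for Rpsa). Without baseline library 1a or 2, or 12 hour library 1a or 2, no member was called, without baseline library 1b 5 were, and without 12 hour library 1b 2 were. With all 8 groups in 1 fit no member passed (adjusted p = 0.0664 for Rpl36al and 0.178 for Rpsa).

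**Figure D3:**
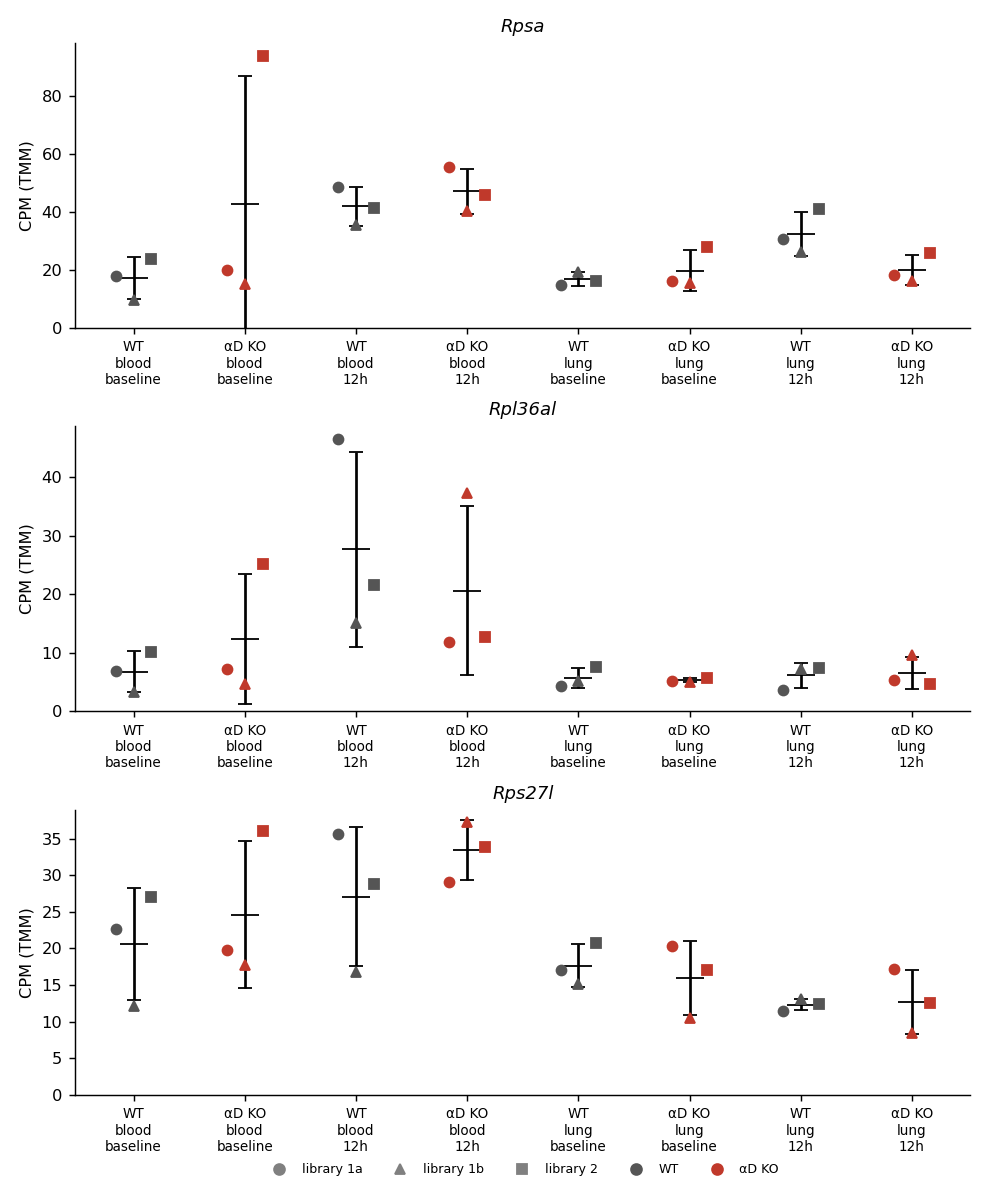
Level of Rpsa, Rpl36al and Rps27l in each library of 8 groups, in TMM-normalized CPM, with the mean ± SD of 3 libraries as black bars, cut at 0 where an SD reaches below it. In WT blood the 12 hour libraries lie above the baseline for Rpsa (35.5 to 48.7 against 9.69 to 23.8 CPM) and for Rpl36al (15.0 to 46.4 against 3.26 to 10.2 CPM).

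In WT lung no member passed the test by time, against 9.02% of 14859 genes tested (edgeR), and 5 of 83 members had an unadjusted p under 0.05 (26.6% of all genes). DESeq2 called 0 as well. The members of smallest p were Rpsa, at 14.6, 19.4 and 16.1 CPM at the baseline and 30.5, 26.1 and 40.9 CPM at 12 hours (fitted change 0.91 on the log2 scale, SE 0.30, adjusted p = 0.0926), and Rpl5, with a log2 fold change of -0.85 (SE 0.28, adjusted p = 0.0992). The Rpsa libraries did not overlap, as in WT blood. In WT lung 12.2% of all genes tested and 9 of 83 members were higher at 12 hours without overlap. Without library 1b of WT lung at 12 hours, 6 members were called. The members' median was 0.06, beside 0.03 for all genes, and its sign was not stable: it was -0.23 without 12 hour library 2 (22 members above 0 and 62 below), -0.10 without 1a, -0.05 without 1b, -0.13 without a filter on low counts and -0.09 over genes with at least 10 counts in every library.

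In αD KO blood, no member passed by time, against 8.77% of 14156 genes tested, and 2 had an unadjusted p under 0.05 (edgeR, 27.8% of all genes). DESeq2 also called 0. Rps9, the most abundant member, had a log2 fold change of 0.76 (SE 0.27, adjusted p = 0.119). The median of the members was -0.00 with all libraries, -0.25 with libraries 1a and 2 alone (20 above 0 and 63 below) and -0.15 without baseline library 1b. Its sign was not stable, as it was 0.67 without library 2 of the baseline, the library with the highest markers of several other cell types. The part of those markers in the result was not tested.

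In lung libraries labelled αD KO, the 83 members had log2 fold changes by time of -0.45 to 0.44, a median of -0.13 beside -0.05 for all genes, and none passed the test, as none of the 17939 genes tested did (0% called). No member had an unadjusted p under 0.05 by edgeR (0.401% of all genes), and DESeq2 called 0. Rps25, with a log2 fold change of -0.44 (SE 0.29, adjusted p = 1.000), and Rpl30, with -0.41 (SE 0.30, adjusted p = 1.000), had the smallest p. The median was 0.05 without baseline library 2 (50 members above 0 and 33 below), 0.04 without 12 hour library 1b, -0.21 without 12 hour library 1a and -0.27 without 12 hour library 2, so its sign rests on single libraries. The labels of these groups sit beside granule gene levels that cross between baseline and 12 hours, as given above, and their part in the result was not tested.

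**Figure D4:**
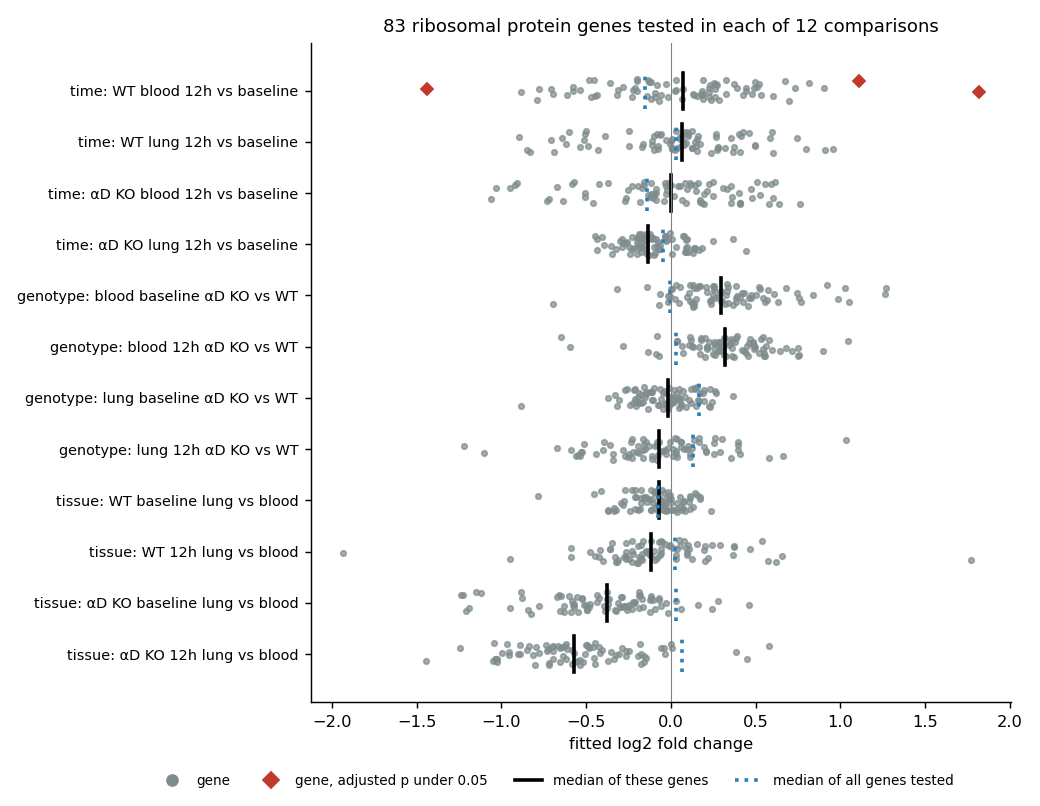
Fitted log2 fold changes of the 83 members tested in each of 12 comparisons of 2 groups; grey points are genes, red diamonds genes with an adjusted p under 0.05, black lines the median of the members and dotted blue lines the median of all genes tested. Red diamonds appear only for WT blood by time, and the members' median is farthest from that of all genes in the αD KO lung against blood comparison at 12 hours (-0.57 against 0.07).

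Averaged over the 4 combinations of genotype and tissue, no member passed by time, against 11.4% of 27145 genes tested, and 11 of 84 members had an unadjusted p under 0.05 (edgeR, 24 libraries in 1 fit, 22.5% of all genes). DESeq2 called 10 members, 3 higher and 7 lower at 12 hours. The members of smallest p were Rps9 (log2 fold change 0.50, SE 0.17, adjusted p = 0.0608) and Rps29 (0.51, SE 0.17, adjusted p = 0.0616). Rps29 passed the test in blood alone (log2 fold change 0.75, adjusted p = 0.0466), an alternative chosen after seeing the data. The members' median was 0.10 beside -0.51 for all genes with TMM scaling, and -0.03 beside -0.65 with RLE scaling, which moved both alike. Over genes with at least 10 counts in every library it was -0.12 beside -0.01 for all genes. With the library number as a block, 10 members were called, 8 higher and 2 lower, among them Rps9 (adjusted p = 0.0115) and Rps29 (adjusted p = 0.0285). Without WT blood baseline library 1b, 5 members were called, all lower, without αD KO lung baseline library 2 there were 3, all higher, and without αD KO blood baseline library 2 there were 2, both higher, with a median of 0.28.

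No member passed the test between the genotypes in any of the 4 comparisons of 2 groups, in which edgeR called 0.0115% of 17356 genes in blood at the baseline and 0% in the other 3. DESeq2 called 0 members in each. An unadjusted p under 0.05 was found for 1 member in blood at the baseline (0.709% of all genes), 6 in blood at 12 hours (4.01%), 1 in lung at the baseline (1.86%) and 1 in lung at 12 hours (8.29%). Averaged over the 4 combinations, a single member was called, the fall of Rps13 in αD KO, against 0.0479% of all 27145 genes. Of all genes 0.0258% were called lower and 0.939% had an unadjusted p under 0.05, which 1 member had. The members' median of this average was 0.11 beside 0.02 for all genes, and -0.05 without library 2 labelled αD KO blood baseline.

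Rps13 was at 36.0, 31.1 and 56.1 CPM in WT blood baseline libraries and at 27.1, 19.7 and 30.7 CPM in those labelled αD KO. At 12 hours in blood it was at 77.9, 47.7 and 57.1 CPM in WT and 38.3, 42.5 and 32.7 CPM in αD KO. In lung at the baseline the WT libraries held 32.0, 31.9 and 31.0 CPM and the αD KO libraries 14.2, 16.6 and 21.2 CPM. In lung at 12 hours they held 43.4, 39.1 and 47.6 CPM and 17.7, 16.3 and 15.5 CPM. Every αD KO library lay below every WT library of its tissue and time in all 4 comparisons, a pattern that 0.0498% of the 12058 genes tested in all 4 had in this direction, and Rps13 was the only member with it. The log2 fold change was -0.70 in blood at the baseline (SE 0.24, adjusted p = 1.000), -0.65 in blood at 12 hours (0.27, adjusted p = 0.962), -0.88 in lung at the baseline (0.24, adjusted p = 0.983) and -1.22 in lung at 12 hours (0.31, adjusted p = 0.598). The average was -0.90 (SE 0.14, adjusted p = 0.00635, edgeR). Rpl32, the member of next smallest p, had 0.38 (SE 0.21, adjusted p = 1.000). With a library left out, the call was kept in 22 of 24 fits and lost without αD KO blood baseline library 1b (adjusted p = 0.557) or 2 (0.432). It was also lost with the files of sample 1 summed, which counts each sample once, at a log2 fold change of -0.94 (adjusted p = 0.0872).

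Of the pseudogenes of Rps13, 1 passed the averaged test between genotypes. Rps13-ps1, which differs from the Rps13 coding sequence by T411C and A429G, was at 3.68 to 14.1 CPM in the 12 αD KO libraries and 0.225 to 2.16 CPM in the 12 WT libraries, without overlap. Its average log2 fold change was 2.41 (SE 0.28, adjusted p = 1.49e-04). Rps13-ps2, identical to the coding sequence, was at 0.0395 to 0.896 CPM in αD KO and 0.523 to 1.96 CPM in WT, from 63 and 274 counts in all. Within each tissue and time its αD KO libraries lay below all WT libraries, as those of Rps13 did, and the average log2 fold change of -1.99 did not pass (SE 0.47, adjusted p = 0.577). Rps13-ps4 had 0.24 (SE 0.33, adjusted p = 1.000). The named pseudogenes took 18.1 to 33.1% of the reads counted for Rps13 and its pseudogenes together in αD KO libraries and 5.40 to 18.3% in WT. The highest WT values, 18.3% and 12.2%, were those of libraries 1b of WT blood and WT lung at the baseline. With those counts added to Rps13, its average log2 fold change was -0.60 and the call was lost (adjusted p = 0.494). The part of the split of reads between gene and pseudogenes in the result was not tested.

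**Figure D5:**
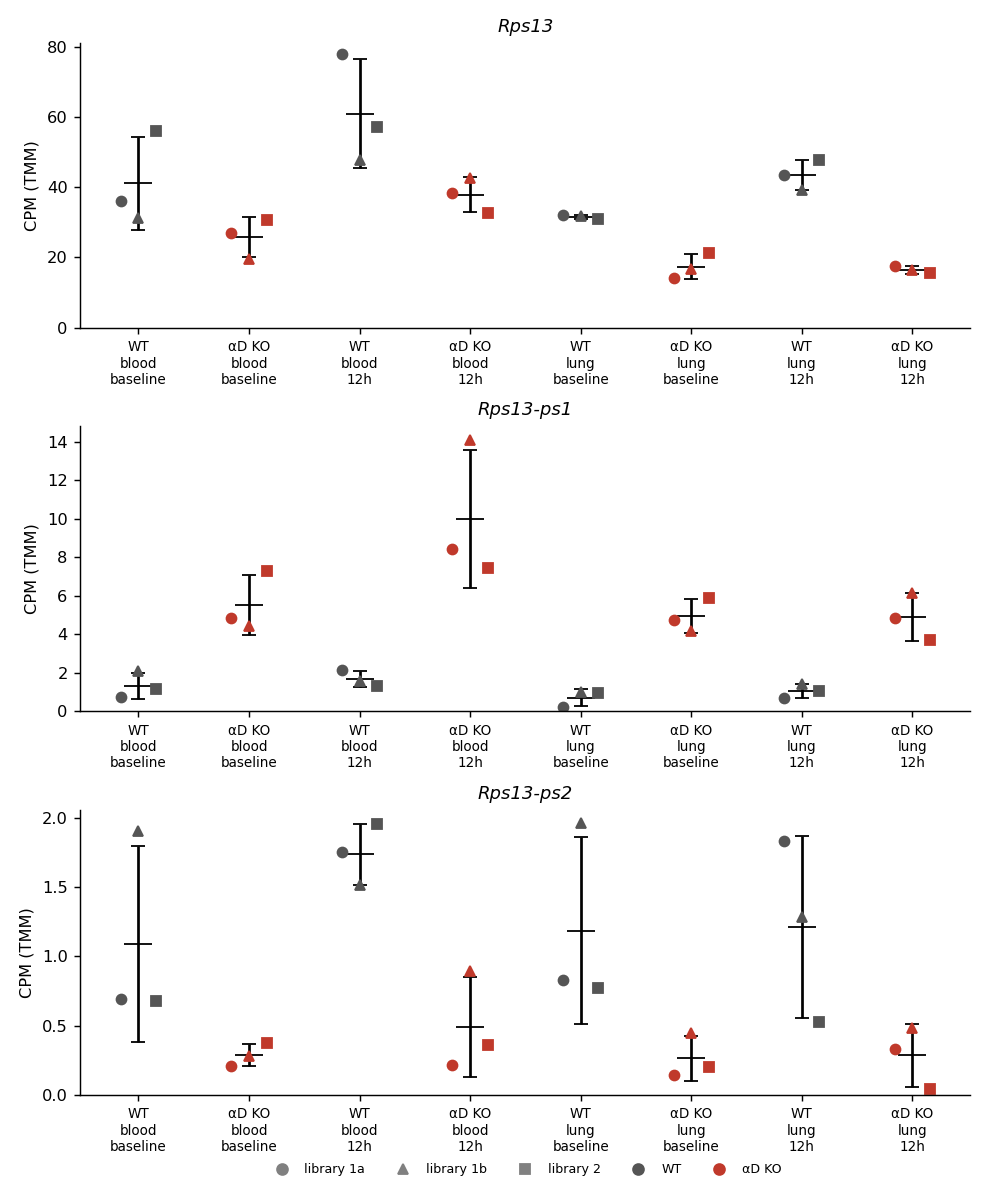
Rps13, Rps13-ps1 and Rps13-ps2 in each library of 8 groups, in TMM-normalized CPM, with the mean ± SD of 3 libraries as black bars. In every tissue and time the αD KO libraries (red) lie below WT (grey) for Rps13, and Rps13-ps1 lies at 3.68 CPM or more in αD KO and 2.16 CPM or less in WT.

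The genes called with Rps13 in the averaged genotype contrast lay mostly on its chromosome. Of the 13 genes, 11 were on chromosome 7, which holds 9.06% of the 27145 genes tested. They include Itgad itself, at chr7:128154376-128223816, and Nucb2, whose start lies at 116504369, close to Rps13. Of the 2 others, Rps13-ps1 is a copy of Rps13 and Rps15a-ps7 (chromosome 2) a named pseudogene of Rps15a, a small subunit member on chromosome 7, with a log2 fold change of 3.42 (adjusted p = 0.00650). Rps13 lies 11.82 Mb from Itgad. The other members within 20 Mb did not pass: Rps15a, 10.04 Mb away, had -0.07 (SE 0.20), Rplp2, 13.22 Mb away, -0.00 (SE 0.15) and Rpl27a, 18.63 Mb away, 0.28 (SE 0.15), each with an adjusted p of 1.000. An effect of the altered Itgad gene and one of the chromosome 7 region around it cannot be told apart in this design.

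In blood at 12 hours, 76 of 83 had a log2 fold change above 0 (91.6%, against 52.8% of all genes tested), the median was 0.32 beside 0.03 for all genes, and 22 members were higher in αD KO without overlap of libraries (26.5%, against 3.38% of all genes). The median was 0.20 without αD KO library 1b and 0.15 with libraries 1a and 2 alone (60 members above 0 and 23 below). Rps27 had the smallest p, with 64.8, 47.5 and 89.7 CPM in WT and 117, 125 and 125 CPM in αD KO (log2 fold change 0.90, SE 0.26, adjusted p = 0.962), followed by Rpl37 (0.76, SE 0.27, adjusted p = 0.962). All Rps27 libraries of αD KO lay above all those of WT. The WT libraries had summed levels of 4106, 2501 and 3675 CPM and the αD KO libraries of 4251, 4270 and 4295 CPM.

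In blood at the baseline the median was 0.30, with 75 of 83 members above 0 (90.4%, against 49.3% of all genes). It was -0.11 without library 2 labelled αD KO, with 20 members above 0 and 64 below. Rpsa showed the same dependence, at 18.0, 9.69 and 23.8 CPM in WT and 19.9, 15.0 and 93.6 CPM in αD KO (log2 fold change 1.27, SE 0.66, adjusted p = 1.000). Library 2, at 93.6 CPM, is the one with the highest markers of several other cell types, and their part in the result was not tested.

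In lung the members' median by genotype was -0.02 at the baseline and -0.07 at 12 hours, beside 0.17 and 0.13 for all genes tested. With a library left out it was -0.09 (without αD KO library 2) to 0.07 (without WT library 2) at the baseline, and -0.24 (without αD KO library 2) to 0.03 (without WT library 2) at 12 hours, so neither sign was stable. Besides Rps13, the members of smallest p were Rpl28 at the baseline (log2 fold change 0.37, SE 0.27, adjusted p = 0.983) and Rpl3l, a form known from striated muscle, at 12 hours. Rpl3l was at 16.2, 10.8 and 40.9 CPM in WT lung at 12 hours and 8.45, 6.26 and 12.4 CPM in αD KO (log2 fold change -1.11, SE 0.49, adjusted p = 0.602), and the libraries overlapped. At 12 hours the summed immature granule genes were at 32628 to 89873 CPM in WT lung. In αD KO lung they were at 8346 to 27756 CPM, all below WT. At the baseline they were at 506 to 2148 CPM in WT and 741 to 79146 CPM in αD KO. At 12 hours the B cell markers were at 35.4 to 110 CPM in WT and 60.2 to 532 CPM in αD KO. The part of these markers in the results was not tested.

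Between tissues, members were on average mostly lower in the lung than in the blood, and whether the difference depended on genotype was not tested. The summed markers of lung structural cells were at 37.5 to 1091 CPM in the 12 lung libraries and at 5.13 to 21.2 CPM in the blood libraries other than WT blood baseline 2, which held 300 CPM. Their part in the results by tissue was not tested. Averaged over genotype and time, 77 of 84 members were below 0, with a median of -0.33 beside 0.19 for all genes, and 91.7% of members against 37.6% of genes were below 0. The call went to 3 members, all lower in lung, against 1.79% of all genes (0.379% lower), and 25 had an unadjusted p under 0.05 (edgeR, 12.0% of all genes). Rpl36al had a log2 fold change of -1.33 (SE 0.30, adjusted p = 0.0239), Rps27l, a p53-responsive form of Rps27, -0.84 (SE 0.19, adjusted p = 0.0207) and Rps13 -0.66 (SE 0.14, adjusted p = 0.0147). Rps27l and Rps13 did not reach an absolute log2 fold change of 1, and Rps13 was named after its values were seen, here as in blood at 12 hours between genotypes. Over WT alone, an alternative chosen after seeing the data, the median was -0.08 and none of the 3 passed (adjusted p = 0.478, 0.587 and 0.733). Without library 2 labelled αD KO blood baseline no member was called and the median was -0.10, and without WT blood 12 hour library 1a none was called either. With 1 library left out, Rps13 stayed called in 21 of 24 fits, Rpl36al in 14 and Rps27l in 12.

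Rps27l was at 12.1 to 36.1 CPM in the 6 blood libraries at the baseline and at 16.8 to 37.2 CPM in the 6 blood libraries at 12 hours. In the lung it was at 10.5 to 20.8 CPM at the baseline and 8.40 to 17.2 CPM at 12 hours. At 12 hours the αD KO lung libraries, at 8.40 to 17.2 CPM, were all below the αD KO blood libraries, at 29.1 to 37.2 CPM, and the WT lung libraries, at 11.5 to 13.1 CPM, were below WT blood at 16.8 to 35.6 CPM. Of all genes tested, 18.4% (αD KO) and 16.3% (WT) were lower in lung without overlap at 12 hours. Rpl36al was at 3.67 to 9.57 CPM in all 12 lung libraries and reached 46.4 CPM in blood.

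Comparing lung and blood within each genotype and time, edgeR called no member in any of the 4. Of all genes tested, 0% were called in WT at the baseline, 0.0442% in WT at 12 hours, 0% in αD KO at the baseline and 0.0548% in αD KO at 12 hours. In the same order, 0, 3, 0 and 21 members had an unadjusted p under 0.05 (2.54, 18.1, 2.91 and 22.2% of all genes), and DESeq2 called 0, 2, 0 and 0. In WT at the baseline Rps13 had the smallest p (log2 fold change -0.45, SE 0.20, adjusted p = 0.999). The members' median there was -0.07 beside -0.08 for all genes, and 0.19 without WT blood library 2. In WT at 12 hours it was -0.12 beside 0.03 for all genes, and 0.04 without WT blood library 1a, so neither sign was stable. In WT at 12 hours Rpl3l was higher in lung, at 16.2, 10.8 and 40.9 CPM against 6.83, 4.07 and 9.82 CPM in blood (log2 fold change 1.77, SE 0.48, adjusted p = 0.150), without overlap. Rpl36al was at 3.67, 7.30 and 7.44 CPM in lung and 46.4, 15.0 and 21.5 CPM in blood (log2 fold change -1.94, SE 0.53, adjusted p = 0.151), also without overlap. DESeq2 called both.

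In αD KO at 12 hours, 79 of 83 members were below 0 (against 47.7% of all genes) and the median was -0.57, beside 0.07 for all genes. Libraries did not overlap for 50 members, all lower in lung (60.2% of members, against 18.4% of all genes). Rps27l (log2 fold change -1.24, SE 0.34, adjusted p = 0.113) and Rpl34 (-1.04, SE 0.29, adjusted p = 0.116) had the smallest p. All 33 small subunit members were below 0, with a median of -0.62, and 46 of 50 large subunit members were, with a median of -0.53. With a library left out the members' median stayed between -0.73 and -0.46. Summed immature granule genes were at 8346, 27756 and 12893 CPM in the lung libraries and 127429, 38913 and 114354 CPM in blood, without overlap. The summed lung structural markers were at 183, 39.7 and 179 CPM in these lung libraries and 12.0, 6.54 and 8.00 CPM in blood, and the B cell markers at 532, 60.2 and 532 CPM and 144, 38.2 and 66.5 CPM. The part of these in the result was not tested. In αD KO at the baseline the median was -0.37, with 77 of 83 members below 0 (against 48.0% of all genes), but 0.15 without blood library 2. Rpl36al (-1.21, SE 0.63) and Rpl18 (-0.63, SE 0.33) had the smallest p there, both with an adjusted p of 1.000.

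No interaction was called. The tests asked whether the change by time differed between genotypes, in blood and in lung, or between tissues, in WT and in αD KO. For these 4 tests edgeR called 0% of 27145 genes and 0 of 84 members. An unadjusted p under 0.05 was found for 0 members by genotype in blood, 2 by genotype in lung, 2 by tissue in WT and 5 by tissue in αD KO (1.52, 11.1, 5.28 and 10.3% of all genes in this order), and DESeq2 called 1 member, in the last. The members' medians were -0.05, -0.28, -0.16 and -0.36 in the same order, beside 0.01, -0.29, 0.58 and 0.58 for all genes, and moved with single libraries. By genotype in blood the median was 0.64 without library 2 labelled αD KO blood baseline and -0.24 without 1b of that group, and by genotype in lung it was -0.03 without library 2 of that group. By tissue in WT it was -0.40 without WT blood baseline library 2 and 0.03 without WT blood 12 hour library 1a. By tissue in αD KO it was -0.80 without blood baseline library 2 and 0.15 without 1b.

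Other genes of the translation machinery were counted beside the members. The ribosomal proteins Fau and Rack1, outside the symbol rule, had no call in any comparison. Of 23 elongation factors and other TOP genes, Nap1l1, a histone chaperone, fell at 12 hours in WT blood (log2 fold change -1.50, adjusted p = 0.0139), in WT lung (-1.93, adjusted p = 0.0460) and in αD KO blood (-1.54, adjusted p = 0.0341). It was the 1 gene of the list called in each, where 5.79% (WT blood) and 3.78% (WT lung) of all genes tested were called lower and 8.77% (αD KO blood) were called in either direction. The elongation factors Eef1a1 and Eef2, the TOP gene Tpt1 and the nucleolar proteins Npm1 and Ncl had no call in any comparison. Averaged by tissue, the snoRNA host gene Snhg8 was lower in lung (-0.89, adjusted p = 0.0378), where 0.379% of all genes were. Of 37 initiation factors, Eif1b (0.88, adjusted p = 0.0492) and Eif4g1 (1.01, adjusted p = 0.0413) rose in WT blood, 2 genes where 7.84% of all genes were called higher. Averaged by time, Eif1b (0.69, adjusted p = 0.00192) and Eif2b2 (1.03, adjusted p = 0.0196) rose and Eif2b3 fell (-1.22, adjusted p = 0.0139), beside 6.74% of all 27145 genes higher and 4.65% lower. No initiation factor was called by edgeR in the other 3 comparisons by time.

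Of 46 ribosome biogenesis genes, Ubtf, a factor of RNA polymerase I transcription (-1.32, adjusted p = 0.0423), and Sbds, a factor of large subunit maturation (-1.04, adjusted p = 0.0339), fell in WT blood at 12 hours, 2 genes where 5.79% of all genes were called lower. In WT lung Nmd3, the nuclear export adaptor of the large subunit, rose (1.90, adjusted p = 0.0189) and Pes1 fell (-1.26, adjusted p = 0.0430), and in αD KO blood Bop1, a partner of Pes1, fell (-1.98, adjusted p = 0.0414). In WT lung 5.24% of all genes were called higher and 3.78% lower, and in αD KO blood 8.77% were called in either direction. Averaged by time, 4 of the 46 were lower, Bop1 (-1.09, adjusted p = 0.00645), Nolc1 (-0.91, adjusted p = 0.0230), Tcof1 (-0.68, adjusted p = 0.0422) and Nop2 (-0.63, adjusted p = 0.0454), and none higher, against 4.65% and 6.74% of all genes.

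Of 12 genes with an Rps6k symbol or listed as TOP mRNA regulators, 5 rose and 1 fell at 12 hours averaged over the 4 combinations, beside 6.74% and 4.65% of all 27145 genes tested. Rptor, the mTORC1 subunit raptor, rose in WT blood (log2 fold change 2.48, adjusted p = 0.0209) and in WT lung (3.74, adjusted p = 0.0152). Rps6ka2, a ribosomal S6 kinase, rose by 1.10 in WT blood (adjusted p = 0.0370) and by 2.45 in WT lung (adjusted p = 0.00810), and Rps6ka5 fell in WT blood (-1.80, adjusted p = 0.0134), in WT lung (-2.26, adjusted p = 0.0178) and in αD KO blood (-1.45, adjusted p = 0.0495).

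The mitochondrial ribosome is a separate ribosome whose proteins are encoded in the nucleus. In WT blood 10 of the 77 tested rose and 1 fell at 12 hours, beside 7.84% and 5.79% of all genes tested, and the median was 0.54 beside -0.15 for all genes. In WT lung 4 of 77 rose and 1 fell (5.24% and 3.78% of all genes), with a median of 0.12 beside 0.03. In αD KO blood 2 rose and 2 fell (8.77% of all genes called in either direction), with a median of 0.26 beside -0.14, and in αD KO lung none of 78 was called (0% of all genes), with a median of -0.08 beside -0.05. In WT blood Mrpl45 (log2 fold change 3.02, adjusted p = 0.00481), Mrpl19 (3.11, adjusted p = 0.00768) and Mrpl52 (2.53, adjusted p = 0.00726) rose and Mrps15 fell (-2.25, adjusted p = 0.00418). Mrpl52 rose and Mrps15 fell also in WT lung (4.32 and -2.94, adjusted p = 0.00823 and 0.0232) and in αD KO blood (2.77 and -2.44, adjusted p = 0.0157 and 0.0192). Averaged by time, 13 of 78 were higher and 1 lower (6.74% and 4.65% of all genes), and averaged by tissue 4 were lower in lung (0.379% of all genes), Mrpl42, Mrps16, Mrpl57 and Mrpl28, with log2 fold changes of -1.11 to -0.69. Whether these genes and the cytosolic members differed was not tested. No gene of these 6 lists was called between genotypes, averaged or in any tissue and time.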

How the data were processed

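RNA sequencing of sorted neutrophils was analysed from the deposited count files. Per the labels and the study's methods, full-length cDNA was amplified (SMART-Seq v4), libraries were made with Nextera XT and sequenced paired-end, reads were trimmed with Trimmomatic 0.36 and mapped with STAR 2.5.2b, and the genome builds named are GRCm38 and mm10. Uniquely mapped reads in exons were counted by the authors, and the deposited whole-number counts cover 49315 genes without normalization. The counting tool and strand are not given in the sources used here. Unique counting leaves out reads that match a gene and its pseudogene equally, and 59 of 85 members have a named pseudogene. Of the members, 30 hold an annotated snoRNA gene and 21 overlap a gene on the other strand, whose reads cannot be told apart without strand. Coordinates of 71 members equal those of GENCODE M21.

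Each file was taken as a library, n = 3 per group. The 2 files of sample 1 differed from each other by far more than sampling noise (chi-square divided by its degrees of freedom 89.4 to 565, genes with at least 10 counts). Tests were edgeR 4.0.16 quasi-likelihood F tests (R 4.3.3, limma 3.58.1) with TMM factors and filterByExpr, two-sided, adjusted by Benjamini-Hochberg over all genes tested. The 12 comparisons of 2 groups used their own 6 libraries. Interactions and averages were contrasts in a fit of all 24 libraries in 8 groups. In the comparisons of 2 groups 83 members passed the filter and in the 8-group fit 84. Standard errors belong to the fitted log2 fold changes. Depth limits members of few counts, such as Rpl10l, and there fold changes are imprecise. Scripts were tested on simulated counts. Tables used Python 3.11.15, pandas 2.3.3, numpy 2.4.6, scipy 1.17.1 and matplotlib 3.10.9.

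To see if the library numbers pair the samples, deviations from group means were correlated between same-numbered libraries. All numbers exceeded a correlation of 0.1 in 6 of 12 comparisons (WT blood by time 0.459, 0.591 and 0.117), the labels give no pairing, and no block was used in the main tests. Alternatives were RLE factors, no filter, at least 10 counts in every library, DESeq2 1.42.0, the files of sample 1 summed, libraries 1a and 2 alone, each library left out (96 fits), the library number as a block, all 8 groups in 1 fit, the 4 groups of an interaction alone, the threshold of an absolute log2 fold change over 1 added, and named pseudogenes added to the member. Averages over blood or WT alone were chosen after seeing the data. Members and gene lists were chosen with earlier results of these data known. Genes named were, in each comparison of 2 groups and each average, the members past both thresholds, or the 2 of smallest p where none was, and fixed lists of members and other genes. Values of some genes that this rule picks are not reported here.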

Additional observations from a re-analysis of the deposited data

How the results depend on the processing

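Of 430 counts of called members recomputed under alternatives, 376 were within 1.5 times the reported count. Where the reported count is 0, as in most comparisons, this can only mean 0 again. The share therefore does not measure how stable the results with calls are. For WT blood by time (3 called), the count was 8 with RLE factors (3 higher and 5 lower), 9 with at least 10 counts in every library (2 higher and 7 lower), 9 with DESeq2 (3 higher and 6 lower), 0 without a filter on low counts and 0 with all 8 groups in 1 fit, and 0 to 5 with a library left out. WT lung by time (0 called) gave 8 with libraries 1a and 2 alone, 1 with at least 10 counts in every library, and 0 to 6 with a library left out. αD KO against WT in lung at 12 hours (0 called) gave 3 with libraries 1a and 2 alone. Lung against blood in WT at 12 hours (0 called) gave 2 without a filter, 2 with DESeq2, 1 with the files of sample 1 summed, 3 with libraries 1a and 2 alone, and 0 to 3 with a library left out, and in αD KO at 12 hours (0 called) 15 with libraries 1a and 2 alone (1 higher and 14 lower). The genotype by time interaction in lung gave 1 with libraries 1a and 2 alone, and tissue by time in αD KO gave 1 with DESeq2 (0 called each). The average by time (0 called) gave 6 with RLE factors (2 higher and 4 lower), 1 without a filter, 14 with at least 10 counts in every library, 10 with DESeq2, 1 with files summed, 2 with libraries 1a and 2 alone, 10 with the library number as a replicate block (8 higher and 2 lower), 4 in blood alone, and 0 to 5 with a library left out. The average by genotype (1 called, Rps13) gave 0 with files summed, 0 with named pseudogenes added, 0 in blood alone, 0 at the added fold threshold, and 0 to 1 with a library left out. The average by tissue (3 called) gave 5 with DESeq2, 6 with libraries 1a and 2 alone, 0 in WT alone, 1 at the added fold threshold, and 0 to 3 with a library left out. RLE factors moved the median of all genes by -0.14 in the average by time, and by 0.30 (WT) and 0.26 (αD KO) in the tissue by time interactions. With the replicate block the WT blood count by time was 4 (2 higher and 2 lower), and the block changed no other count of the comparisons of 2 groups. Where a count moved, the cause was not tested. Rpl10l and Rpl39l had few counts, and whether a difference in them could be detected at this depth was not tested.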
